A study of Mus musculus with 26 samples.

Results

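TCRTg101 are CD8+ T cells that carry a transgenic receptor against the C1498 murine leukemia line, and RNA-seq of these cells was examined here for 8 surface marker genes of antigen experience: Cd44, Ly6c1, Ly6c2, Ly6a, Ly6e, Ly6k, Cd5 and Cd6. The members were taken as a list of named genes, without a cut on measured values but with earlier results of these data known. They are 8 of the 35865 genes to which the transcripts were assigned. The mice were C57BL/6 and, per the labels, 6 weeks old and wild type. Per the study's methods the TCR Tg101 line was kept on a Rag2-/- background and its receptor came from the single clone T15, so all groups share that receptor. Labelled TCRTg101 were transferred into host mice and C1498 cells were given intravenously 1 day later, and the cells sequenced were sorted by flow cytometry.

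The data comprised 14 libraries made with a low-input protocol and 1 made from control cells with oligo-dT priming. Of the 14, the controls without leukemia were 2 spleen libraries at day 0 and 1 spleen library at day 18. One further spleen library held undivided cells, those that had kept their division dye in leukemia-bearing mice at day 18. Leukemia-bearing spleen gave 2 libraries at day 7 and 1 at day 14. Leukemia-bearing liver gave 2 early libraries (day 7), 3 mid libraries (days 13, 13 and 14) and 2 late libraries (days 18 and 16). The sources used here do not say whether a library pooled animals, so the p-values measure only the spread between libraries. The controls were spleen cells and the mid and late libraries liver cells, so leukemia and tissue cannot be told apart in those comparisons. Labels call the 2 day 0 controls naive Tg101 and the day 18 control Tg101 from untreated mice. The labels do not say whether the day 0 cells had been in a host. Against the day 0 controls, leukemia can therefore also not be told apart from day or from any time in a host. Titles name a TG and an XC series, and the TG series holds replicate 1 of control day 0, of mid and of late.

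Depth was 22918996 to 71358287 estimated counts per library, and all 8 members passed the filter of at least 10 counts in at least 6 libraries. Levels are given as CPM unless stated, the counts of a gene relative to all counts of its library, scaled by edgeR's TMM factors. The 7 markers of CD8 T cells were above 0 in every library, with a summed level of 4223 to 8942 CPM. The day 0 controls also held RNA of other cells. The 8 monocyte and macrophage markers summed to 103.3 and 489.6 CPM there, against 8.57 CPM in the day 18 control (where Clec4f and Fcgr1 were at 0) and 15.9 to 55.7 CPM in the mid and late libraries. The 4 hemoglobin genes summed to 5183 and 20120 CPM at day 0 and to at most 213.8 CPM elsewhere. Hepatocyte markers summed to 3.18 to 297.8 CPM in the mid and late libraries and to at most 0.824 CPM in controls. The part of these RNAs in the members' levels was not tested, apart from the values without the day 0 controls given below. In bulk libraries, fewer cells with a transcript and less of it per cell cannot be told apart.

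CD44 is a receptor for hyaluronan and osteopontin that is low on naive T cells and stays high on effector and memory cells. The Ly6 genes encode small glycosylphosphatidylinositol-anchored proteins with the fold of the urokinase receptor. Ly6c1 and Ly6c2 both encode the Ly6C antigen of memory CD8 T cells and monocytes, Ly6a encodes Sca-1, Ly6e an anchored protein found on thymocytes and many other cells, and Ly6k is best known from testis. CD5 and CD6 are related receptors with scavenger receptor cysteine-rich domains. CD5 restrains signalling through the T cell receptor and its level on T cells follows the strength of that signalling, and CD6 binds ALCAM.

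In the GENCODE vM21 annotation of GRCm38, Cd44 lies at chr2:102811141-102901665, and Cd5 and Cd6 are neighbours at chr19:10717116-10739002 and chr19:10789341-10830058. The 5 Ly6 members lie on chromosome 15, from Ly6k at chr15:74796874-74799986 through Ly6e at chr15:74955051-74959905, Ly6a at chr15:74994877-74998031 and Ly6c1 at chr15:75044018-75048830 to Ly6c2 at chr15:75108158-75111970. Ly6e is on the plus strand and the other 7 members are on the minus strand. Ly6c1 and Ly6c2 moved in opposite directions in these libraries and are close copies, so their sequences are shown. Each has 393 coding bases in its first transcript, of which 384 (97.7%) are the same, with 9 mismatches and no gap. The first 240 coding bases, read from GENCODE vM21 on the minus strand, hold 6 of these mismatches, shown in capitals. The coding parts span chr15:75045405-75048511 for Ly6c1 and chr15:75108546-75111667 for Ly6c2.
Ly6c1-201: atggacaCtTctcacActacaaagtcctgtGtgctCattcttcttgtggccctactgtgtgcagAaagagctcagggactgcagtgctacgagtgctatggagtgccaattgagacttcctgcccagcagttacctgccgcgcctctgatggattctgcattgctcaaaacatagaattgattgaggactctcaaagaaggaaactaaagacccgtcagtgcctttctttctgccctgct
Ly6c2-201: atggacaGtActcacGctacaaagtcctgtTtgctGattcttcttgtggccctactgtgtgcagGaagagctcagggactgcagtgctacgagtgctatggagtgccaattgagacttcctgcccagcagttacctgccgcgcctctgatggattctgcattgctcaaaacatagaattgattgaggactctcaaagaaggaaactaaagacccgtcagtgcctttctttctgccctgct

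Similarity fell off quickly in the rest of the family. Ly6a shared 81.8% of aligned coding columns with Ly6c1 and 81.6% with Ly6c2, whereas Ly6e and Ly6k shared 41.7% to 49.3% with the other members. Kallisto, which made the deposited counts, divides reads among transcripts that share sequence. Of the different 31-base words in its transcripts, Ly6c1 shared 46.8% with other genes (822 of 1758, 581 of them with Ly6c2), Ly6a 31.9% and Ly6c2 23.7%. The shares were 0.42% for Ly6e, 0.05% for Cd6 and 0.04% for Cd44, and Cd5 and Ly6k shared none. The split between Ly6c1 and Ly6c2 is therefore an estimate with an error the tests do not include.

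The sequences before the transcription starts had diverged more than the coding parts. RefSeq (GRCm38.p6) gave a promoter for 4 of the 8 members (Cd44, Ly6c1, Ly6c2 and Cd5). In a local alignment of the 250 bases before the first listed starts of Ly6c1 and Ly6c2, 164 of 227 columns were the same (72.2%). The aligned parts, at chr15:75048839-75049056 for Ly6c1 and chr15:75111998-75112221 for Ly6c2 on the minus strand, are shown because the levels of the pair went opposite ways. Capitals mark bases that differ from the other gene or have no base opposite them.
Ly6c1 promoter: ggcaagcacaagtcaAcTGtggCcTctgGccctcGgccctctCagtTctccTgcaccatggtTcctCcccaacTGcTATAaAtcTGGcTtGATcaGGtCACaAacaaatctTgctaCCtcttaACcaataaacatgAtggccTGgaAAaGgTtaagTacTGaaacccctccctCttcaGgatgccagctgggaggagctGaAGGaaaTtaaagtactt
Ly6c2 promoter: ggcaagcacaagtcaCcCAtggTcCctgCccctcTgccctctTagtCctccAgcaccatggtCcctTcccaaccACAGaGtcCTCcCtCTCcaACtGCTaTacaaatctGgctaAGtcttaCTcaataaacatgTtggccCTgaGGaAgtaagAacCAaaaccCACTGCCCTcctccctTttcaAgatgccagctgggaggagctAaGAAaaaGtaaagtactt
Ly6C is known to respond to interferons, so a pair of motifs was searched on both strands, namely the GAS element TTCNNNGAA, and the core of the ISRE element, GAAA repeated after any 2 bases. None of the 4 members' windows held either, against 7.02% and 2.98% of 32851 mouse promoter windows of 250 bases. That says only that these letters are not in these windows.

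Comparison of the 5 mid and late liver libraries with the 3 controls asked which markers change as the cells persist with leukemia. Cd44 and Ly6c2 were several-fold higher, Cd5 and Ly6e rose by a smaller amount, and Ly6c1 fell by the largest amount of the 8 members. Ly6a, Ly6k and Cd6 did not pass the test. The 5 called members (4 higher, 1 lower) stand against a background of 47.3% of 14600 genes called (23.5% higher and 23.8% lower), so a call is common in this comparison. Every mid and late library lay above every control for Cd44, Ly6c2 and Cd5, a pattern that 19.6% of genes showed, and below every control for Ly6c1, as for 18.1% of genes. Without control day 0 replicate 1 the comparison called 6 genes and 0 members. The median log2 fold change was 0.35 over the 8 members and -0.05 over all genes tested.

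Cd44 was at 26.7, 12.4 and 5.23 CPM in the controls (day 0 replicates 1 and 2, then day 18). It was at 83.5, 67.2 and 96.9 CPM in the mid libraries and 113.1 and 124.1 CPM in the late libraries. The groups did not overlap. The mean was 14.8 ± 10.9 CPM (SD, n = 3) in controls and 97.0 ± 22.7 CPM (SD, n = 5) in mid and late libraries. The fitted log2 fold change was 2.83 ± 0.94 (SE), and the adjusted p was 0.0408 (edgeR's quasi-likelihood test, with p-values adjusted over all genes tested by the Benjamini-Hochberg method). The call did not survive the loss of any 1 of the 8 libraries, with adjusted p-values of 0.0622 (without mid replicate 1) to 0.12 (without the day 18 control). The log2 fold change stayed at or above 2.39 in all 17 alternatives.

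Ly6c2 was at 188.3, 62.0 and 175.7 CPM in the controls. It was at 769.7, 531.9 and 603.6 CPM in the mid libraries and at 796.5 and 493.1 CPM in the late libraries. No mid or late library overlapped a control, with means of 142.0 ± 69.6 CPM (SD, n = 3) and 639.0 ± 137.7 CPM (SD, n = 5). The log2 fold change was 2.11 ± 0.41 (SE, adjusted p = 0.00747 by edgeR's quasi-likelihood test). Of the 8 libraries, leaving out control day 0 replicate 1 alone ended the call, at an adjusted p of 0.0578. Against the day 18 control alone, a single library with which the fit called 0 genes, the log2 fold change was 1.46.

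Ly6c1 went the other way at a level far below that of its copy. It was at 15.6, 6.78 and 1.69 CPM in the controls, at 1.68, 0.508 and 1.06 CPM in the mid libraries and at 0.697 and 0.596 CPM in the late libraries. The highest mid or late value (mid replicate 1) and the lowest control (day 18) were nearly equal, so the groups barely separate. The log2 fold change was -3.16 ± 0.57 (SE, adjusted p = 0.00657 by edgeR's quasi-likelihood test). The call was lost only without control day 0 replicate 1 of the 8 libraries (adjusted p = 0.0581). The counts behind these levels were 1040, 347 and 52 in the controls and 14 to 97 in the mid and late libraries, against 3175 to 44337 for Ly6c2.

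Some markers of other cells followed the Ly6c1 level in the controls and some did not, and whether such cells supplied it was not tested. Hemoglobin genes summed to 5183, 20120 and 135.5 CPM in the controls, not in the order of Ly6c1. Mid replicate 1 had 55.7 CPM of monocyte and macrophage markers against 8.57 CPM in the day 18 control, at nearly equal Ly6c1. Most of the 55.7 CPM was Cd68 (29.1 CPM) and Ccr2 (18.8 CPM), at 1.82 and 0.39 CPM in the day 18 control. Csf1r (0.712 against 3.64 CPM) and Cd14 (0.069 against 0.227 CPM) were lower in mid replicate 1, and the other markers of this list were higher. The 2 day 0 libraries with 103.3 and 489.6 CPM of monocyte and macrophage markers also had the higher Ly6c1, and the neutrophil markers were at 24.5 to 157.9 CPM in them against 9.45 CPM in the day 18 control. The 5 endothelial markers summed to 128.2 and 165.8 CPM in control day 0 replicates 1 and 2 and 164.6 CPM at day 18. Most of each sum was Pecam1, at 111.6, 164.3 and 163.0 CPM, which did not follow Ly6c1. Stab2, at 14.8, 1.29 and 1.01 CPM over the same libraries, fell in the order of Ly6c1. Lyve1, Cdh5 and Kdr were at 1.54 CPM or less in these controls. Against the day 18 control alone, Ly6c1 had a log2 fold change of -1.45, in that same fit with 0 genes called. When the counts of Ly6c1 and Ly6c2 were added, the pair rose by 2.04 on the log2 scale (adjusted p = 0.0072 by edgeR's quasi-likelihood test), close to Ly6c2 alone.

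Ly6e was the most abundant member. It was at 1682, 842.6 and 921.4 CPM in the controls, at 2138, 1160 and 1324 CPM in the mid libraries and at 2503 and 1306 CPM in the late libraries. Pooled, the groups overlapped, because the TG control was higher than the XC liver libraries. Within the TG series the control lay below both liver libraries, and within the XC series both controls lay below all 3 mid and late libraries. Without TMM scaling the TG values were close, at 1727 CPM in the control and 1742 and 1809 CPM in the liver libraries. In the deposited TPM the TG control (1226) lay below the mid (1274) but above the late TG library (1213). The order within the XC series held on both scales. The log2 fold change with the series in the model was 0.49 ± 0.15 (SE, adjusted p = 0.0281 by edgeR's quasi-likelihood test), and without the series term the adjusted p was 0.255. The call held without mid replicate 1 or mid replicate 2 and was lost without each of the other 6 libraries, with adjusted p-values of up to 0.112.

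Cd5 was at 132.2, 111.7 and 152.6 CPM in the controls, at 286.3, 241.4 and 205.3 CPM in the mid libraries and at 327.8 and 157.6 CPM in the late libraries. The late XC library lay just above the day 18 control, and without TMM scaling the 2 changed order, at 149.6 and 167.5 CPM. The log2 fold change was 0.78 ± 0.27 (SE, adjusted p = 0.0412 by edgeR's quasi-likelihood test). The call held without control day 18 or late replicate 2 (that same late XC library), was lost without each of the other 6, and the log2 fold change was 0.39 against the day 18 control alone. Cd6, the neighbour of Cd5, was at 251.4 to 422.4 CPM in the controls and at 271.5 to 476.1 CPM in the mid and late libraries. Its groups overlapped throughout, with a log2 fold change of 0.09 ± 0.23 (SE, adjusted p = 0.755).

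Ly6a had no common direction. It was at 211.9, 44.1 and 127.0 CPM in the controls, at 494.4, 107.7 and 177.2 CPM in the mid libraries and at 202.7 and 54.1 CPM in the late libraries. The spread within each group covered that between groups, and the log2 fold change was 0.21 ± 0.38 (SE, adjusted p = 0.664 by edgeR's quasi-likelihood test), turning to -0.60 against the day 18 control alone and to -0.08 without control day 0 replicate 2. Ly6k was at 4.87 to 6.24 CPM in the controls and at 1.65 to 9.01 CPM in the mid and late libraries. Its log2 fold change was -0.42 ± 0.43 (SE, adjusted p = 0.43).

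**Figure D1:**
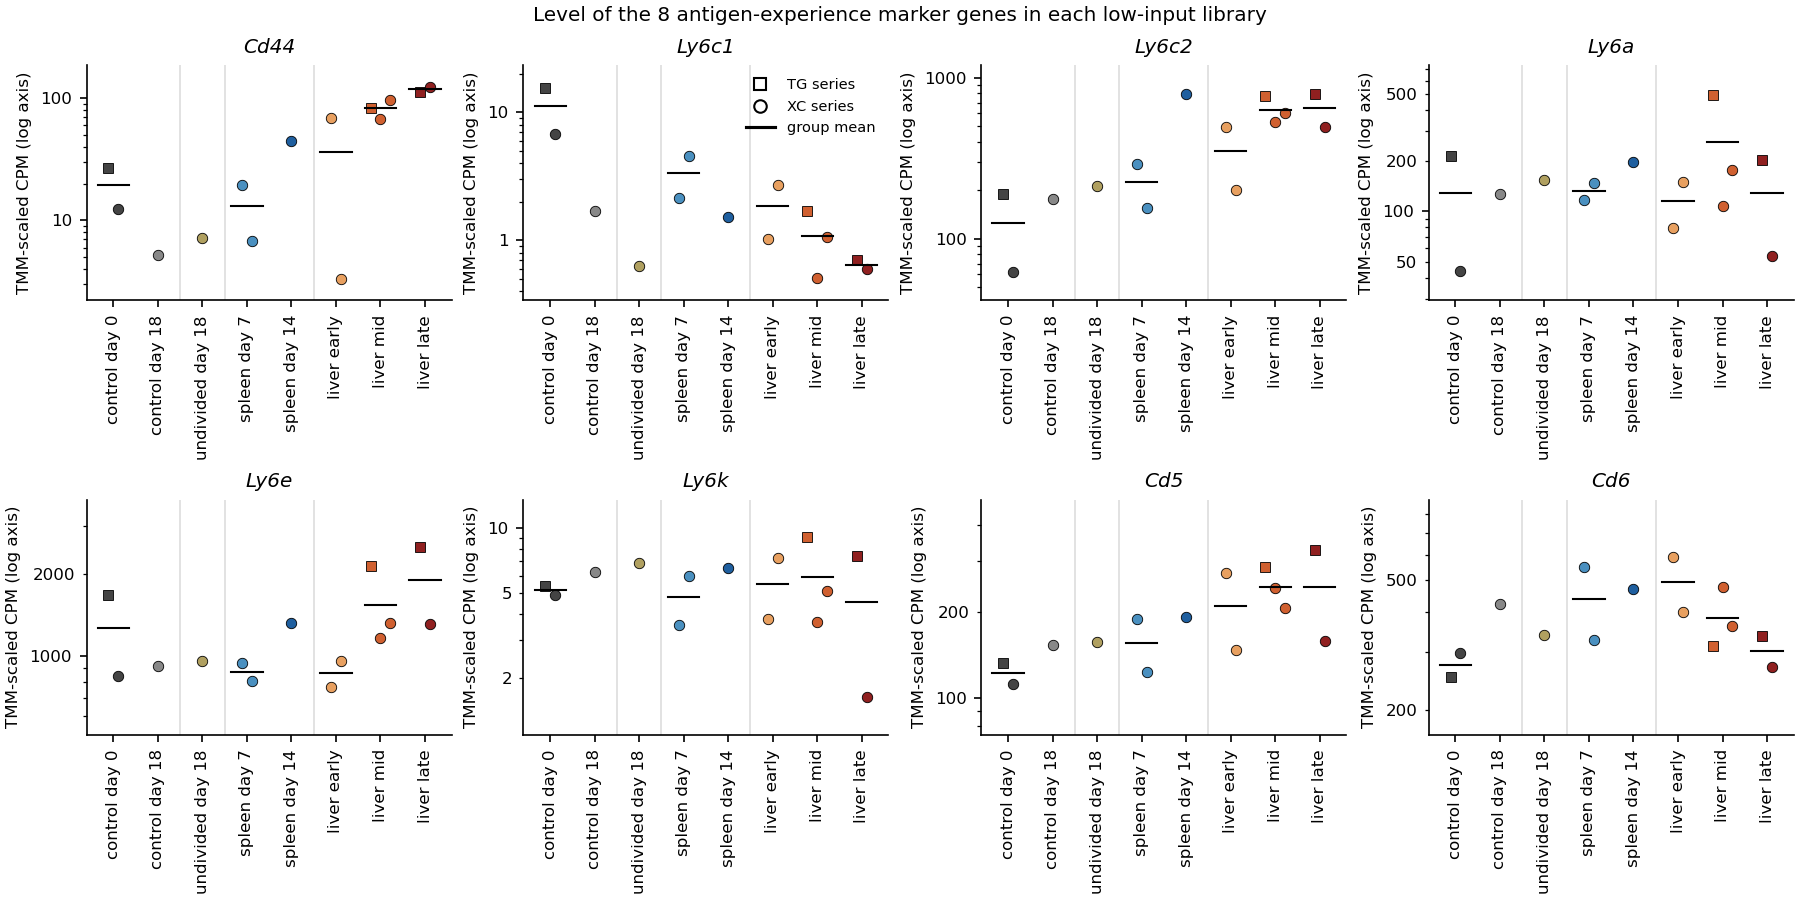
TMM-scaled CPM (log axes, a different range in each panel) of the 8 marker genes in the 14 low-input libraries, grouped by tissue and day. Squares are TG and circles XC libraries, and a line marks the mean of groups with more than 1 library. Cd44 and Ly6c2 lie higher in every mid and late liver library than in every control, Ly6c1 lies lower, and the 2 early libraries stand apart from each other for Cd44 (68.7 and 3.32 CPM).

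Taken separately, the late and the mid libraries gave fewer calls. Late against control called 3 of 8 members, Ly6c2 and Ly6e higher and Ly6c1 lower, where 37.5% of 14600 genes were called (19.8% higher and 17.7% lower). Mid against control called 2 of 8, Ly6c2 higher and Ly6c1 lower, where 31.3% of genes were called (17.3% higher and 13.9% lower). Cd44 had log2 fold changes of 3.05 ± 1.04 in late (adjusted p = 0.0524 by edgeR's quasi-likelihood test) and 2.61 ± 0.98 in mid libraries (adjusted p = 0.0769). DESeq2 called 5 members and 5453 genes in mid, and 4 members and 6209 genes in late against control. Without either late library, which leaves 1 in the group, 0 genes and 0 members were called in late, and without control day 0 replicate 1 the late comparison called 148 genes and 0 members. The mid calls went to 0 members without mid replicate 1, mid replicate 3 or either day 0 control (0 or 1 genes called).

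Late and mid liver libraries were not distinguished by any member. None of the 14600 genes (0%) passed edgeR's quasi-likelihood test between them, where 780 had an unadjusted p under 0.05 and DESeq2 called 32. The member with the largest difference was Ly6a, at 494.4, 107.7 and 177.2 CPM in mid and 202.7 and 54.1 CPM in late libraries. It had a log2 fold change of -1.32 ± 0.49 (SE, adjusted p = 0.91). Cd44 was at 82.5 ± 14.8 CPM (SD, n = 3) in mid and 118.6 ± 7.78 CPM (SD, n = 2) in late libraries, which do not overlap, with an adjusted p of 0.981.

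**Figure D2:**
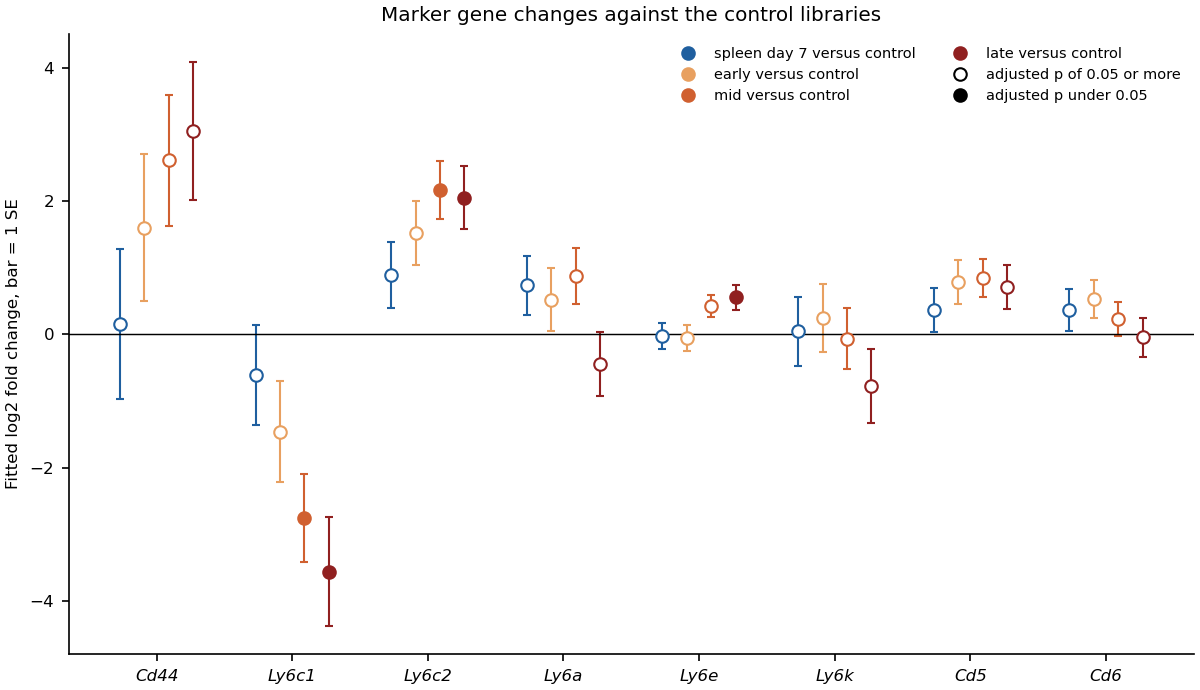
Fitted log2 fold changes against the control libraries (y axis, bars of 1 SE) for the 8 marker genes in day 7 spleen and in early, mid and late liver libraries of leukemia-bearing mice. Filled points have an adjusted p under 0.05 (edgeR), which are Ly6c1 and Ly6c2 in mid and late libraries and Ly6e in late libraries, and the bars of Cd44 are among the longest of the 8 genes.

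The early comparison asked whether the markers had moved by day 7, and its 2 libraries disagreed. In early replicate 1, Cd44 was at 68.7 CPM, Ly6c2 at 495.4 CPM and Cd5 at 271.8 CPM, all above every control. In early replicate 2, Cd44 was at 3.32 CPM, below every control, and Ly6c2 and Cd5 were at 202.1 and 147.3 CPM. Ly6c1 was at 1.02 and 2.70 CPM, Ly6a at 78.9 and 150.3 CPM, Ly6e at 771.7 and 959.9 CPM, Ly6k at 3.76 and 7.21 CPM and Cd6 at 590.4 and 400.6 CPM. For Cd44, Ly6c1, Ly6c2 and Cd5 the first library lay nearer to the mid and late libraries and the second nearer to the day 18 control.

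Early against control called none of 14600 genes (0%), with 1493 at an unadjusted p under 0.05 and 350 called by DESeq2, and none of the members. The log2 fold changes of Cd44 and Ly6c2 were 1.60 ± 1.10 and 1.52 ± 0.48 (SE), with adjusted p-values of 0.645 and 0.455 by edgeR's quasi-likelihood test. Without early replicate 2 the early group is 1 library, which the fit assumes to vary like the other groups, and 1902 genes and 2 members were called, Ly6c2 at a log2 fold change of 2.02 (adjusted p = 0.0252) and Cd5 at 1.16 (adjusted p = 0.0326). Without early replicate 1 the log2 fold change of Cd44 was -1.84. Leaving out the day 18 control gave 19 genes called and no member.

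Spleen of leukemia-bearing mice held tissue constant against the controls, though the day still differed. At day 7, Cd44 was at 19.4 and 6.80 CPM and Ly6c2 at 292.9 and 154.3 CPM, both spanning control values. Ly6c1 was at 2.13 and 4.55 CPM, Ly6a at 117.3 and 146.7 CPM, Ly6e at 939.6 and 812.5 CPM and Ly6k at 3.53 and 5.96 CPM. Cd5 was at 187.9 and 122.7 CPM and Cd6 at 547.3 and 327.1 CPM. As in the early liver libraries, replicate 1 was the higher for Cd44, Ly6c2, Cd5 and Cd6 and the lower for Ly6c1, Ly6a and Ly6k. Replicate numbers were given in accession order and do not pair the tissues. None of 15449 genes (0%) and no member was called in spleen day 7 against control, with 970 at an unadjusted p under 0.05 and 15 called by DESeq2. Liver against spleen at day 7 likewise called none of 15449 genes (0%), with 1391 at an unadjusted p under 0.05 and 59 by DESeq2, and the log2 difference of Cd44 was 1.46 ± 1.17 (SE, adjusted p = 0.7 by edgeR's quasi-likelihood test).

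The single day 14 spleen library, for which no test was made, had values of the kind seen in liver. Cd44 was at 44.5 CPM, above every control and below every mid and late liver library. Ly6c2 was at 797.6 CPM, against 796.5 CPM in the highest liver library. Ly6c1 was at 1.52 CPM, below every control, and Cd5 was at 191.6 CPM, above every control. Ly6a (196.9 CPM) and Ly6e (1322 CPM) lay within the range of the controls, and Ly6k (6.52 CPM) and Cd6 (471.4 CPM) lay above it. Monocyte and macrophage markers summed to 6.19 to 47.1 CPM over the 3 spleen libraries of leukemia-bearing mice.

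The undivided library, also a single one, asked what cells of leukemia-bearing mice that had not divided expressed. Cd44 was at 7.16 CPM, Ly6a at 152.7 CPM, Ly6e at 956.6 CPM and Cd6 at 338.2 CPM, all within the range of the controls. Ly6c2 was at 211.9 CPM, above the controls by less than their spread, and Cd5 (156.1 CPM) and Ly6k (6.87 CPM) were also just above them. Ly6c1 was the exception, at 0.63 CPM (19 counts), below the day 18 control (1.69 CPM, 52 counts) and within the range of the mid and late libraries. In this library Ly6c1 was low while Cd44 stayed at a control level.

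Levels can be compared between genes only per length, for which the deposited TPM, scaled by transcript length and summed per gene, were used. In the controls Ly6e was highest (994 ± 213 TPM, SD, n = 3), followed by Ly6c2 (175 ± 90.3), Ly6a (132 ± 75.7), Cd6 (110 ± 44.3) and Cd5 (65.2 ± 16.7), of which neighbours overlapped within their SD from Ly6c2 to Cd5. Ly6k (8.38 ± 1.56), Ly6c1 (8.31 ± 6.32) and Cd44 (3.70 ± 2.32) came last. In the mid and late libraries Ly6e (1197 ± 61.5 TPM, SD, n = 5) and Ly6c2 (641 ± 88.8) stood clear of each other and of the rest. Ly6a (169 ± 121), Cd6 (100.3 ± 41.6) and Cd5 (92.3 ± 17.6) again overlapped, followed by Cd44 (22.7 ± 7.60), Ly6k (6.18 ± 2.72) and Ly6c1 (1.12 ± 0.54). Cd44 thus passed from the lowest of the 8 to above Ly6k and Ly6c1, yet stayed below Cd5 and Cd6. On the TPM scale the Cd5 levels of controls (55.2 to 84.5) and of mid and late libraries (71.6 to 119.1) overlapped.

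Ratios between members do not depend on library scaling, and 3 of them, chosen after the values were seen, are described here with no test. The ratio of Ly6c1 to Ly6c2 was 0.0828, 0.109 and 0.00961 in the controls. It was 0.000875 to 0.00219 in the mid and late libraries, 0.00206 and 0.0133 in the early libraries and 0.00297 in the undivided library. The mid and late libraries lay below all controls, and the mean log2 ratio was lower by a difference of -5.08 (-5.90 within the TG series and -4.68 within the XC series).

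The ratio of Ly6a to Ly6c2 was 1.13, 0.710 and 0.723 in the controls and 0.642, 0.203, 0.294, 0.255 and 0.110 in the mid and late libraries. These ranges also did not overlap, with a mean log2 difference of -1.71. The difference was -1.94 within the XC series and -1.48 within the TG series. Early replicate 1 (0.159) and the day 14 spleen library (0.247) lay among the mid and late libraries, and early replicate 2 (0.744) and the undivided library (0.721) among the controls.

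The ratio of Cd6 to Cd5 was 1.90, 2.68 and 2.77 in the controls and 1.10, 1.97, 1.76, 1.03 and 1.72 in the mid and late libraries. Pooled, the ranges overlapped through mid replicate 2, with a mean log2 difference of -0.72. Within each series all mid and late values were below all controls, by a mean of -0.84 in TG and -0.58 in XC on the log2 scale. Spleen of leukemia-bearing mice kept ratios of 2.46 to 2.91, the early libraries had 2.17 and 2.72, and the undivided library had 2.17.

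**Figure D3:**
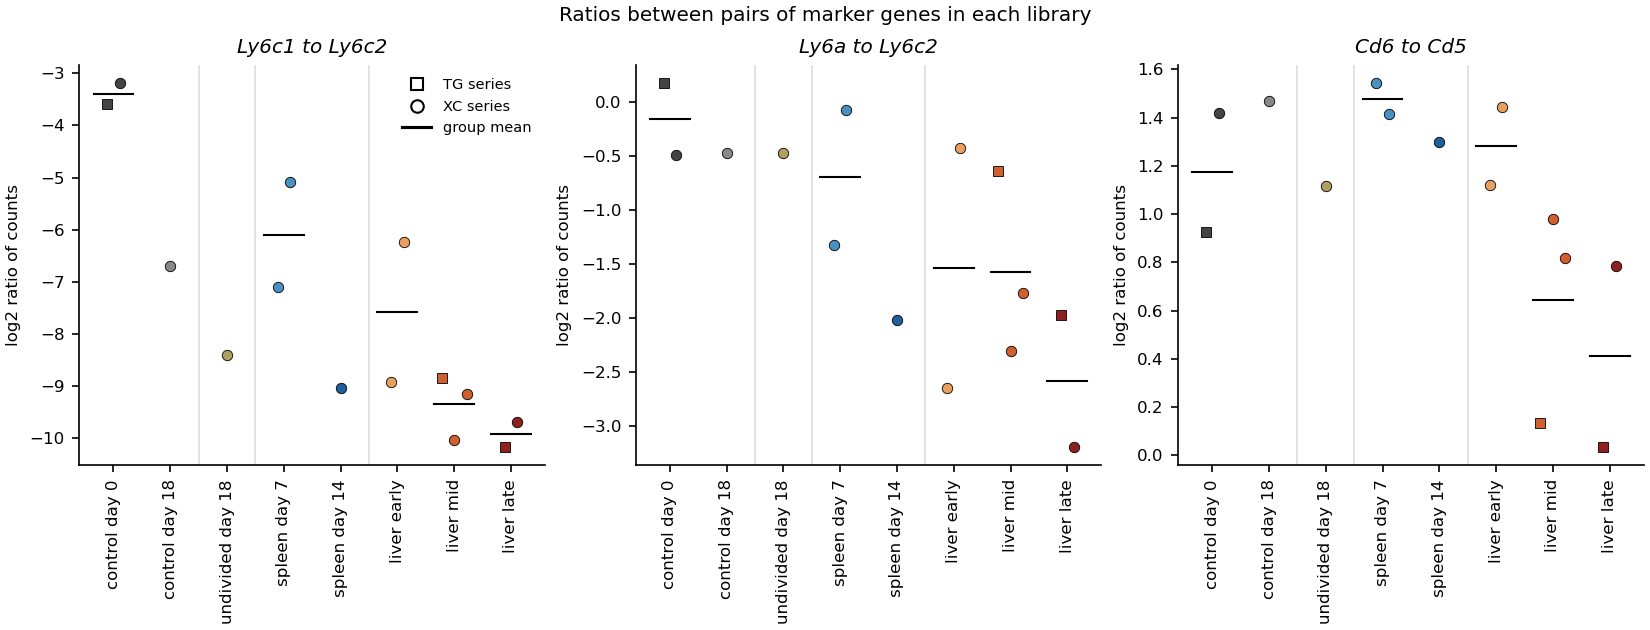
The log2 ratio of the counts of 3 pairs of marker genes (y axes, a different range in each panel) in each of the 14 low-input libraries. Squares are TG and circles XC libraries, and lines mark the means of groups with more than 1 library. The ratio of Ly6c1 to Ly6c2 spans -3.19 to -6.70 in controls and -8.84 to -10.2 in mid and late libraries, and the ratio of Cd6 to Cd5 splits by series within mid and late libraries.

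Kallisto's transcript estimates allowed isoform shares to be compared for the 6 members with at least 2 transcripts of a mean share of 10% or more. Cd44 was divided mainly between Cd44-203 (9 exons, 365 residues), the short form without the variable exons, and Cd44-207 (14 exons, 577 residues). Cd44-203 held 56.2%, 70.1% and 74.9% of Cd44 counts in the controls and 47.4%, 76.3%, 70.8%, 59.99% and 72.0% in the mid and late libraries. The shares did not separate the groups, with a difference of -1.77 percentage points (exact permutation p = 0.893). They lay at 47.4% to 59.99% in the 3 TG libraries and at 51.4% to 76.3% in the XC libraries. The 2 transcripts also differ in the bases annotated after the coding part, 1589 in Cd44-203 and 2995 in Cd44-207, and the oligo-dT library put 93.4% of its Cd44 counts on Cd44-207. A share therefore does not separate variable exons from the length of the 3' end.

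Cd6-203 (13 exons, 665 residues) held 33.6% of Cd6 counts in the TG control and 52.9% and 62.3% in the XC controls. In the mid and late libraries it held 29.5% and 32.0% in the TG series and 57.0%, 65.4% and 70.5% in the XC series. Series thus split the shares (29.5% to 33.6% against 52.9% to 70.5% over all libraries) where group did not (exact permutation p = 0.893). What sets these shares was not tested.

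Ly6c1 was the member whose shares differed most between groups. Ly6c1-201 (131 residues) held 96.5%, 90.1% and 72.8% of Ly6c1 counts in the controls and 56.6%, 71.1%, 14.9%, 23.4% and 0% in the mid and late libraries. Ly6c1-203 (81 residues) held 1.71%, 1.59% and 24.2% in the controls and 19.4% to 80.7% in those 5 libraries. Over the 13 transcripts compared, the smallest p was that of Ly6c1-201 (exact permutation p = 0.0357, adjusted 0.464), so none passed. The 56 arrangements of the libraries allow no exact permutation p under 0.0179. No transcript could therefore pass by itself after adjustment over 13, and the lack of a pass decides nothing about the shares. These shares rest on 14 to 97 counts per mid or late library.

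**Figure D4:**
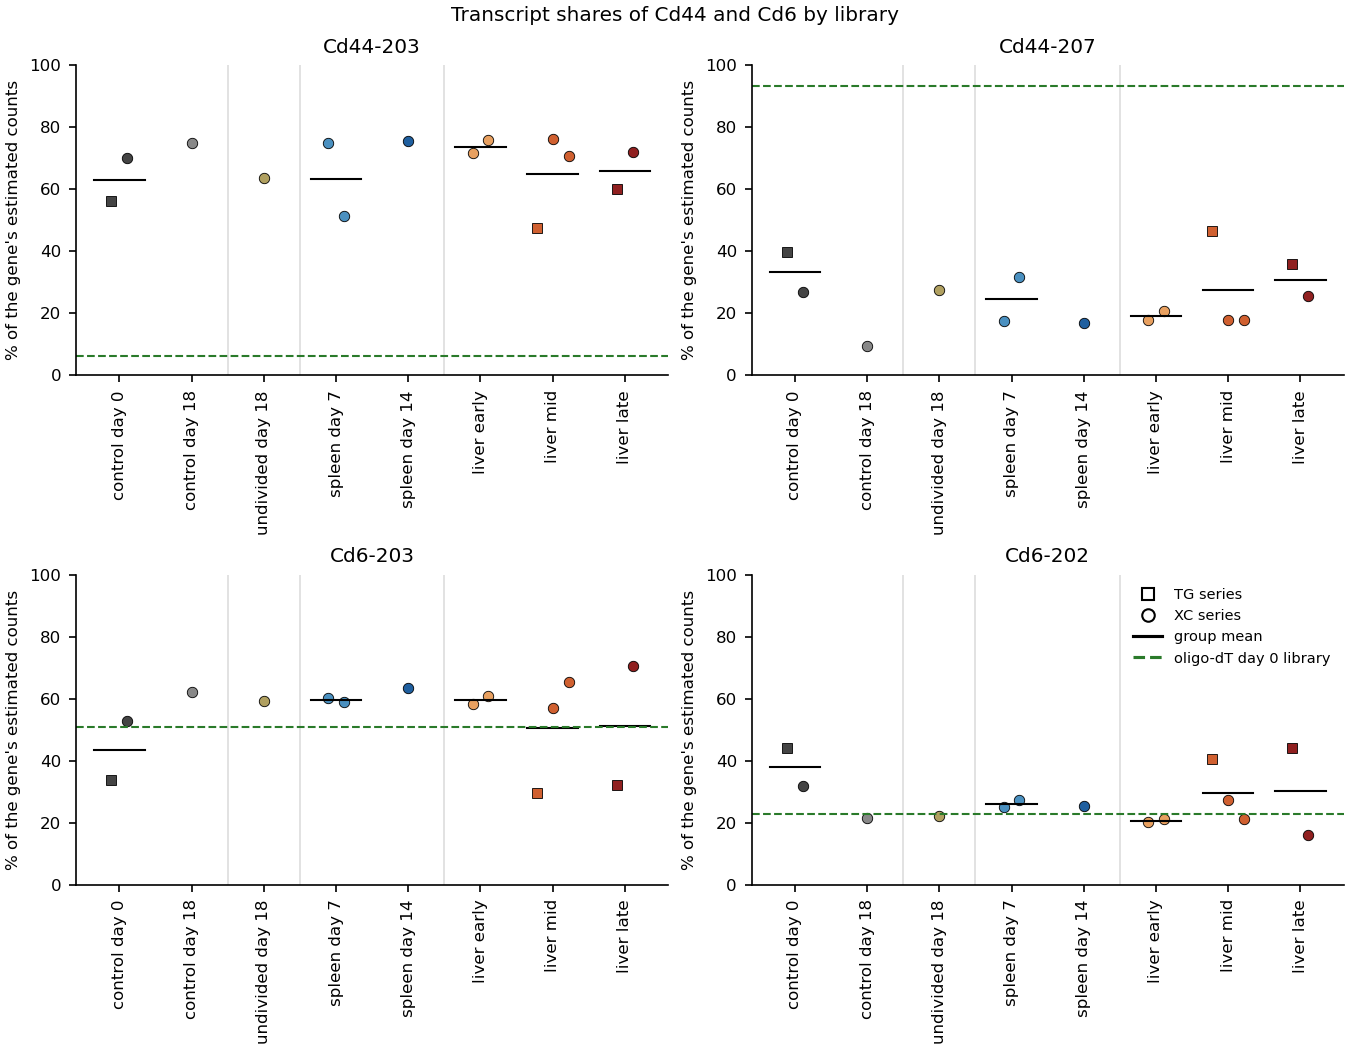
Share of a gene's estimated counts (percent, y axes from 0 to 100) held by the 2 main transcripts of Cd44 and of Cd6 in each low-input library. Squares are TG and circles XC libraries, solid lines are group means and the dashed line is the oligo-dT library. Cd6-203 lies at 29.5% to 33.6% in TG and at 52.9% or more in XC libraries whatever the group, and the oligo-dT library puts 93.4% of Cd44 on Cd44-207.

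Other genes of the same pathways were taken from lists, and their counts refer to mid and late against control, where 47.3% of all genes tested were called. The lists were chosen with earlier results of these data known, and these counts are described without a test of the lists. Of 17 genes for ligands, linkers and proteases of CD44, 13 were tested, 4 rose and 3 fell, 7 of 13 in all and near that background (median log2 fold change 0.23, against -0.05 over all genes). Spp1, which encodes the CD44 ligand osteopontin, was at 0 to 0.839 CPM in the controls and at 54.3 to 360.4 CPM in the mid and late libraries. Its log2 fold change was 8.52 ± 1.73 (SE, adjusted p = 0.00904 by edgeR's quasi-likelihood test). Tiam1, a Rac exchange factor, rose by 1.88 on the log2 scale. Esrp2, a splicing regulator of CD44, fell by 1.44, and Mmp14, a membrane protease, fell by 1.19.

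Of 17 genes for ligands and signalling partners of CD5 and CD6, 16 were tested, 5 rose and 3 fell, 8 of 16 in all and again near 47.3% (median log2 fold change -0.01). Alcam, the ligand of CD6, was at 0.26 to 1.25 CPM in the controls and at 42.0 to 69.2 CPM in the mid and late libraries. Its log2 fold change was 6.12 ± 1.23 (SE, adjusted p = 0.00891 by edgeR's quasi-likelihood test). Ubash3b, a phosphatase that lowers T cell receptor signalling, rose from 39.1 to 46.9 CPM to 168.0 to 297.4 CPM. Tsc22d3, a glucocorticoid-induced gene, fell by 2.87 on the log2 scale and Grap2, an adaptor of T cell receptor signalling, fell by 1.84.

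Of 15 surface genes of the naive and the antigen-experienced state, all were tested, 7 rose and 6 fell, 13 of 15 in all against 47.3% of all genes (median log2 fold change 0.66). Pdcd1, encoding PD-1, was at 1.12 to 2.44 CPM in the controls and at 235.4 to 975.5 CPM in the mid and late libraries (log2 fold change 8.24 ± 1.45 SE), and Il2ra, encoding CD25, rose by 6.51 on the log2 scale. Itgae, encoding CD103, fell by 3.50 and S1pr1, which guides egress into blood and lymph, fell by 2.97. Adjusted p-values of these 4 genes were 0.00655 to 0.00756 by edgeR's quasi-likelihood test.

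Interferon-stimulated genes were listed because Ly6c2, Ly6a and Ly6e are known to respond to interferon. All 16 were tested, 1 rose and 9 fell, 10 of 16 in all against 47.3% of all genes (median log2 fold change -1.01). Ifi27l2a rose by 1.33 on the log2 scale. Oasl2 fell by 3.11, from 23.9 to 35.8 CPM in the controls to 1.66 to 8.49 CPM, and Ifit3 fell by 2.23. Over the same libraries Ly6c2 and Ly6e were higher and Ly6a did not pass the test. In the late libraries alone 1 rose and 9 fell, and in the mid libraries alone 1 rose and 2 fell.

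Of 20 other Ly6 and related genes, 18 had a level, 13 on chromosome 15 and 5 on chromosome 17. Of these, 11 were under 1 CPM in every library and 2 (Lypd2 and Gml) were at 0 in all. Only 7 were tested, 1 rose and 3 fell, 4 of 7 in all against 47.3% of all genes (median log2 fold change -0.91). Ly6f rose by 1.80 on the log2 scale at 0.363 to 0.762 CPM in the mid and late libraries. Ly6d, a gene known from B cell precursors, was at 0.227 to 9.69 CPM in the controls and at 0.183 to 0.436 CPM in the mid and late libraries, and Lynx1 fell by 1.71 on the log2 scale.

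Likeness between members over the 14 low-input libraries is given as Pearson's r of log2 CPM with no test, since the libraries share their division into tissues, days and series. Ly6c2 went with Cd5 (r = 0.85) and with Cd44 (r = 0.78), and Cd44 with Cd5 (r = 0.70). Ly6a went with Ly6k (r = 0.73) and Ly6e (r = 0.63), and Ly6e had nearly the same r with Cd44 (0.61), Ly6c2 (0.61) and Cd5 (0.55). Ly6c1 had its lowest value with Ly6c2 (r = -0.65), and Cd6 reached at most 0.40, with its neighbour Cd5.

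Among 5882 genes of a mean log2 CPM of at least 5, those most like Cd44 were Top2a (r = 0.968), Anxa2 (0.966) and Stmn1 (0.959). Most like Ly6c2 were Tm6sf1 (r = 0.932), Tnfrsf9 (0.922) and Ppa1 (0.913), and most like Cd5 were Ppif (0.971), Bysl (0.966) and Slc19a1 (0.965). Most like Ly6e were Batf (r = 0.967), Sdhaf2 (0.962) and Tmem179b (0.957). The other members had looser neighbours, Fech, Bsdc1 and Epc1 for Ly6c1 (r = 0.831 to 0.843), Cipc, Slc25a22 and Prmt3 for Cd6 (0.859 to 0.872), Ostf1, Lat and B2m for Ly6a (0.766 to 0.800) and AI467606, Cars2 and Sirt7 for Ly6k (0.754 to 0.769).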

How the data were processed

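TCRTg101 sorted from spleen or liver were sequenced as low-input libraries in 2 batches on a HiSeq instrument, and the authors quantified transcripts with kallisto (version not given in the sources used here) after bcl2fastq. The authors deposited estimated counts per transcript, which are not whole numbers, and TPM, which the authors' tool scaled by length and depth. Estimated counts of 26 runs were summed over the runs of each of 15 libraries and over the transcripts of a gene (GENCODE vM21, matched by transcript identifier for 98.2% of transcripts and 98.95% to 99.25% of counts) and rounded. GENCODE vM21 may not be the annotation behind the counts. The deposited TPM were averaged over runs. Genes reaching 10 counts in 6 or more libraries were tested with edgeR 4.0.16 in R 4.3.3 (quasi-likelihood, robust, two-sided, Benjamini-Hochberg, threshold 0.05), with group and series in the model.

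Of the 7 comparisons, 5 used the 11 control, undivided and liver libraries (residual degrees of freedom 5) and the 2 with day 7 spleen used all 14 (6). The series in the titles was taken as the batch. TMM factors were 0.724 to 1.22 over the 14 libraries. The edgeR fit was tested on simulated counts for some of the comparisons. Log2 CPM for the correlations used a prior count of 2. Counts of this size leave little counting error except for Ly6c1, Ly6k and the libraries with the lowest Cd44. Cd44 had 106 counts in early replicate 2 and 161 in the day 18 control. The 1 to 3 libraries per group limit the precision. Tables and permutation tests of transcript shares were made in Python 3.11.15 (numpy 2.4.6, pandas 2.3.3) and plots with matplotlib 3.10.9. The members and the gene lists were chosen with earlier results of these data known. All 8 members are named, with the 3 genes most like each, and up to 2 genes with the largest rise and 2 with the largest fall among those called in each list. The oligo-dT library entered no test. Alternatives were DESeq2 1.42.0, RLE scaling, no series term, no count filter, the first run only, other control sets, another library set, summed Ly6c1 and Ly6c2, and each library left out. The comparisons with the day 18 control only and with the XC series only, and the ratios, which have no test, were added after the data were seen.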

Additional observations from a re-analysis of the deposited data

Results flagged for a closer look

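Cd44 in the oligo-dT day 0 library, which no comparison used, was at 29.2 CPM without TMM scaling. That is above the highest low-input control, control day 0 replicate 1, at 27.4 CPM on the same scale. In the mid and late libraries no member had 1 library far enough from the other 4 by Dixon's test.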

How the results depend on the processing

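No direction of the 5 members called in mid and late against control changed under any alternative, apart from Ly6c1 when its counts were added to those of Ly6c2, where the sum had log2 fold changes of 2.04 (mid and late), 1.98 (late) and 2.09 (mid) because Ly6c2 holds most of the reads. Counts of calls were less stable, and the cause was not tested. Without the series term 4238 genes and 3 members were called in mid and late, 2693 genes in late, and 1385 genes and 1 member in mid against control. With day 0 controls only, 5462 genes and 3 members were called in mid and late, 2373 genes and 3 members in mid, and 20 genes in early against control. With the XC series only, a fit of fewer libraries, 0 genes and 0 members were called in mid against control. The fit with the day 18 control only held the same 11 libraries but a control group of 1, too few to read a count of calls. Its log2 fold changes in mid and late were 4.10 for Cd44, 1.46 for Ly6c2, -1.45 for Ly6c1, 0.43 for Ly6e and 0.39 for Cd5. DESeq2 called 5453 genes and 5 members in mid against control, and 350 genes in early against control, 32 in late against mid, 15 in spleen day 7 against control and 59 in liver against spleen at day 7. Without a count filter, 5708 genes and 5 members were called in mid, 1480 genes and 2 members in early, 434 genes and 1 member in late against mid, 642 genes in spleen day 7, and 984 genes and 1 member in liver against spleen at day 7.

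With 1 library left out, mid and late against control called 6 genes and 0 members (both without control day 0 replicate 1) to 6159 genes and 3 members. Late called 0 (without late replicate 1 or 2) to 4126 genes and 0 to 2 members, and mid 0 (without mid replicate 1 or 3) to 3157 genes and 0 to 3 members. Early called 0 to 1902 genes and 0 to 2 members, the highest without early replicate 2, which leaves 1 early library, spleen day 7 called 0 to 162 genes, the highest without spleen day 7 replicate 1, and liver against spleen at day 7 called 0 to 973 genes. Of 750 member fold changes under alternatives, 656 stayed on their side of the threshold, 72 lost a call, 19 gained one and 3 reversed. No paired analysis was possible because the labels give no replicate number shared between groups, only library and run numbers. Groups of 1 to 3 libraries, and 14 to 97 counts of Ly6c1 per mid or late library, limit what these data can show.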

Other observations

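The oligo-dT library from day 0 control cells gave the members without TMM scaling at levels that can be set beside control day 0 replicate 1 of the same series. Ly6c2 was at 64.0 CPM against 193.3, Ly6a at 85.7 against 217.6 and Ly6e at 837.3 against 1727. Cd6 was at 175.5 against 258.2, Cd5 at 104.8 against 135.8, Ly6c1 at 4.22 against 16.0 and Ly6k at 2.43 against 5.51. Cd44 alone was higher, at 29.2 against 27.4. The division of counts within genes also differed, with 6.2% of Cd44 counts on Cd44-203 against 56.2%, 71.7% of Ly6a counts on Ly6a-204 against 9.64% and 97.9% of Ly6k counts on Ly6k-201 against 20.7%. There is 1 oligo-dT library, so these are values of that library and no test was made.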
